A study of Homo sapiens with 3 samples.

Results

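The genes described here were 10 genes of glycolysis: the hexokinases HK1 and HK2, GPI, PFKL, ALDOA, GAPDH, PGK1, ENO1, LDHA and the glucose transporter gene SLC2A1. They were found by the gene name that the array gives each of its probes, and they were 10 of the 27274 gene names on the array. Expression was measured in HepG2 cells, a line grown from a human hepatocellular carcinoma, on 1-colour Agilent arrays, which read the brightness of labelled RNA on short DNA probes. There were 3 arrays, 1 for each condition: control cells at 0 μM etoposide, a low dose of 10 μM and a high dose of 100 μM, each for 30 h. Etoposide traps topoisomerase II on broken DNA, and the study chose its doses to set senescent cells (low dose) beside apoptotic cells (high dose). The labels give the control as untreated cells. With 1 array for a condition there was no replicate of a culture, no difference could be tested, and every fold change below compares one array with another.

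Glycolysis splits glucose into pyruvate in the cytosol and yields ATP without oxygen, and lactate dehydrogenase then turns pyruvate into lactate. Glucose enters the cell through transporters of the SLC2A family, hexokinases trap it as glucose 6-phosphate, and phosphofructokinase commits it to the pathway. Most steps have several isozymes from separate genes: the liver favours the transporter SLC2A2, and liver tumour cells commonly express HK2, ALDOA and SLC2A1 in addition. MYC and the hypoxia-inducible factors are well known activators of many of these genes, and both kinds of factor bind DNA at short motifs built on the letters ACGTG.

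The 10 genes had 12 probes of 60 bases, and 11 of these were well above background on all 3 arrays by the call of the scanner software. HK2 and LDHA had 2 probes, the other 8 genes had 1. GAPDH and PGK1 were measured on probes spotted 10 times on each array, the other 8 on a single spot, so their errors are not alike. The error given with each log2 fold change is called a spot SD. For a probe spotted once, it comes from the 50 probes spotted 10 times that were nearest to it in signal. For a probe spotted 10 times, it is the smaller error of the mean of that probe's own spots. Either kind covers the scatter of spots within an array, and leaves out the spread between cultures and between labellings. Signals of different probes are not comparable, since each probe binds its RNA with its own strength.

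Some of the probes are shown because they are the measuring device behind the values below. The ENO1 probe (hg18, chr1:8846641-8846700, minus strand) lies in the coding sequence, as do the GAPDH probe (chr12:6517179-6517238, plus strand) and the ALDOA probe (chr16:29988825-29988971, plus strand). The ALDOA probe spans 147 bases of genome for its 60 letters, so it crosses at least 1 intron. The second LDHA probe carries the gene's name and accession in the array file, but the file places it on another chromosome than the gene (chr9:14911817-14911876, minus strand), and it was not matched to the LDHA transcript here.
ENO1 probe: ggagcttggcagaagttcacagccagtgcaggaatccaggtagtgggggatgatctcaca
GAPDH probe: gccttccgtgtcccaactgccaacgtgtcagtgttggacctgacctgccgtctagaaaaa
ALDOA probe: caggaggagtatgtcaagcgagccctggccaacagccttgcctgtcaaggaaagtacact
LDHA second probe: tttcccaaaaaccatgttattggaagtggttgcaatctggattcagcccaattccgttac
G and C made up 41.7% of the second LDHA probe and 55% of each of the other 3. LDHA and GAPDH are known to have processed pseudogenes with near-identical sequence, and whether RNA of such copies adds to these signals was not tested. The second LDHA probe is therefore not taken as a second reading of LDHA.

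On each array, log2 signals were set relative to the 75th percentile of all probes, and a fold change past 1.5 in either direction was counted. At 10 μM over control, 9.03% of the 16718 genes that could be compared were past 1.5-fold higher and 6.48% were past it lower. At 100 μM over control these shares were 18.4% and 9.7% of 16981 genes. Among the glycolysis genes, HK1 was the 1 gene past 1.5-fold at 10 μM, and it was higher. At 100 μM, HK1 was again past 1.5-fold higher and ENO1 was past it lower. A count of 1 in 10 in one direction is near the share of all genes, so the counts alone say nothing particular about glycolysis. The median log2 fold change of the 10 genes was -0.13 at 10 μM and -0.06 at 100 μM, beside -0.03 and 0.09 for all genes well above background on both arrays. Relative to those medians of all genes, 8 of the 10 were lower at 10 μM and 9 of the 10 at 100 μM. A uniform scaling cannot change these counts; with quantile normalization 7 of the 10 were lower at 100 μM, and the gap between the medians there went from -0.15 to -0.0438. Genes with a mean signal of 10000 or more had medians of -0.08 at 10 μM and -0.05 at 100 μM. These lie nearer to the medians of the 10 genes, and the 10 genes were not counted against them. In bulk RNA such as this, fewer cells of a kind and less RNA per cell cannot be told apart.

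**Figure D1:**
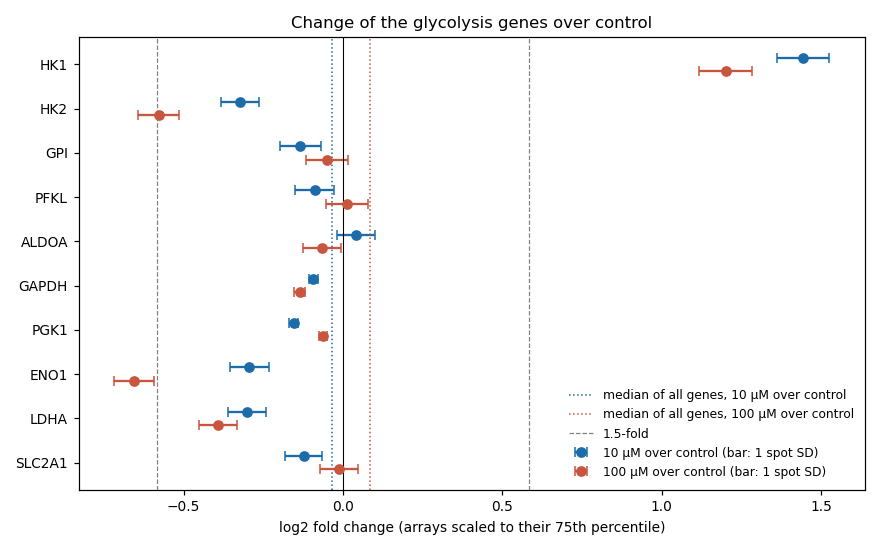
Log2 fold change of each glycolysis gene at 10 μM (blue) and 100 μM (red) etoposide over control, with bars of 1 spot SD from a single pair of arrays. Dotted lines mark the median of all genes (-0.03 and 0.09), dashed lines 1.5-fold; HK1 stands alone on the right, at 1.45 and 1.20, and ENO1, HK2 and LDHA lie farthest to the left at both doses.

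The scaling between arrays has to be read beside every small value at 100 μM. The 75th percentile signal was 514 on the control array, 536.4 at 10 μM and 432.3 at 100 μM, so the last array was dimmer at this percentile. The log2 ratio at 100 μM over control was -0.25 for this percentile and -0.08 for spiked control RNA, so not all signals fell alike. Under 6 other uniform scalings, all log2 fold changes of an array moved together, by -0.02 to 0.09 at 10 μM and by -0.29 to 0.14 at 100 μM over control. The median of all genes at 100 μM moved with them from 0.09 to between -0.20 and 0.22. Differences between 2 genes on the same pair of arrays do not depend on a uniform scaling, and they are given where the order of the genes matters.

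Hexokinases phosphorylate glucose, the first step of the pathway inside the cell. HK1, the hexokinase of most tissues, had a signal of 253 in control cells, 719 at 10 μM and 489.5 at 100 μM (NM_033500, hg18 chr10:70831164-70831223). Both treated arrays were above control, with the low dose highest. HK1 was 2.72-fold higher at 10 μM (log2 fold change 1.45 ± 0.08, spot SD) and 2.30-fold higher at 100 μM (1.20 ± 0.08). Only 1.02% of the 15449 genes measured on both arrays had a larger log2 fold change at 10 μM, and 2.85% of 15466 had a larger one at 100 μM. Under all 8 scalings the gene was past 1.5-fold at both doses. On the log2 scale HK1 lay between 1.42 and 1.54 at 10 μM and between 0.91 and 1.34 at 100 μM. The normexp alternative, which is not one of the 8 scalings, gave lower values than those reported. They were 1.29 at 10 μM and 1.001 at 100 μM, moved by more than the spot SD but still past 1.5-fold. The low dose exceeded the high dose by 0.24 ± 0.07, and this difference kept its sign under the 8 scalings, from 0.17 to 0.56. HK1 has 1 probe spotted once on this array, so no second probe bears on these values.

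HK2, the inducible hexokinase common in tumour cells, had a signal of 2578 in control cells, 2151 at 10 μM and 1452 at 100 μM (NM_000189, chr2:74973839-74973898). Its signal was lower on each treated array, lowest at the high dose. The log2 fold change over control was -0.32 ± 0.06 at 10 μM and -0.58 ± 0.06 at 100 μM, the latter being 1.49-fold lower and thus just short of 1.5-fold. Across the 8 scalings the high-dose value ran from -0.87 to -0.44 and was past 1.5-fold in 3 of them. The second HK2 probe (chr2:74971867-74971926) read 4.60, 5.10 and 4.99, was not well above background on any array and gives no fold change.

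The 2 hexokinases moved apart. HK1 against HK2 changed by 1.77 ± 0.10 on the log2 scale at 10 μM, a 3.41-fold shift of the ratio, and by 1.78 ± 0.10 at 100 μM, a 3.43-fold shift. These values are free of the scaling, and the ratio differed between the doses by -0.01 ± 0.09. HK3 was not well above background on any array.

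**Figure D2:**
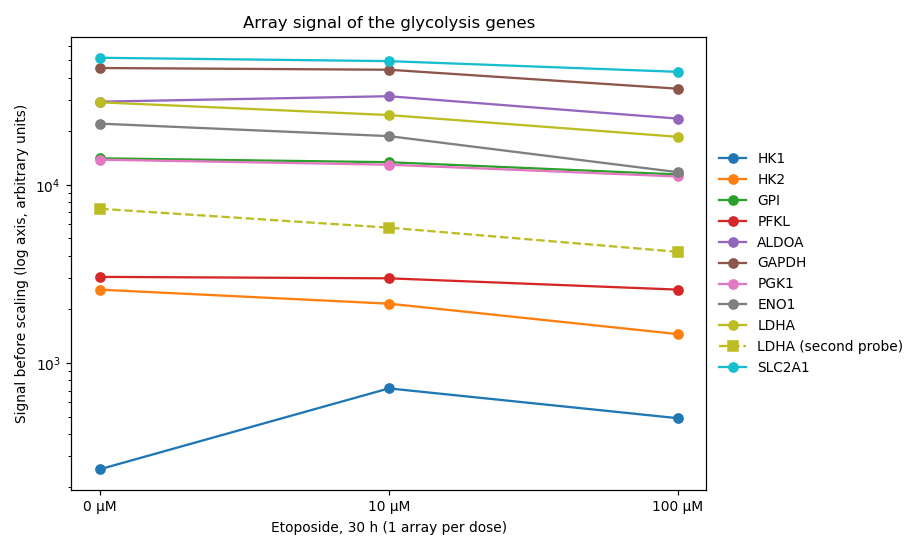
Signal of each probe of the glycolysis genes (log axis, arbitrary units, before any scaling) on the control array and the arrays at 10 and 100 μM etoposide, 1 array each. HK1 is the line that climbs from 253 to 719 and then 489.5, while 8 of the 10 genes have a lower signal at each step, and the dashed line is the second LDHA probe; heights of different probes cannot be compared.

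ENO1, the enolase of most tissues, makes phosphoenolpyruvate near the end of the pathway. Its signal was 22043 in control cells, 18762 at 10 μM and 11774 at 100 μM (NM_001428). The values stepped down with dose. The log2 fold change was -0.29 ± 0.06 at 10 μM and -0.65 ± 0.06 at 100 μM, where ENO1 was 1.57-fold lower than control and 7.69% of all genes were lower still. Between the doses, ENO1 was 1.28-fold higher at 10 μM than at 100 μM (0.36 ± 0.06). The high-dose value was past 1.5-fold under 7 of the 8 scalings, from -0.94 to -0.52. The exception was GAPDH as the reference.

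LDHA encodes the M subunit of lactate dehydrogenase. Its brighter probe read 29051 in control cells, 24629 at 10 μM and 18602 at 100 μM (NM_005566, chr11:18385365-18385424). Both treated arrays were below control. The log2 fold changes over control were -0.30 ± 0.06 and -0.39 ± 0.06, and the difference between the doses, 0.09 ± 0.06, was within 2 spot SDs of 0. The probe placed on chromosome 9 read 7334, 5746 and 4206, with log2 fold changes of -0.41 ± 0.06 and -0.55 ± 0.07. LDHA was past 1.5-fold at 100 μM under 2 of the 8 scalings, without scaling and with the median, and its values ran from -0.68 to -0.26.

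ENO1, HK2 and LDHA were the lowest of the 10 genes at both doses. Set against GAPDH on the same arrays, ENO1 changed by -0.20 at 10 μM and by -0.52 at 100 μM. HK2 changed by -0.23 and -0.44 against GAPDH, and LDHA by -0.21 and -0.26. That all 3 lay below GAPDH follows from their choice as the lowest of the 10, and a uniform scaling cannot alter it.

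The remaining 6 genes stayed nearer to the median of all genes. GPI, the isomerase that makes fructose 6-phosphate, read 14078 in control cells, 13390 at 10 μM and 11429 at 100 μM (NM_000175, chr19:39583014-39583073). PFKL, the liver phosphofructokinase, read 3041, 2985 and 2580 (NM_002626, chr21:44568918-44569177). After scaling these were -0.13 ± 0.06 and -0.05 ± 0.07 for GPI and -0.09 ± 0.06 and 0.01 ± 0.07 for PFKL on the log2 scale, so that PFKL lay within 2 spot SDs of 0 at both doses. ALDOA, the aldolase of muscle and of growing cells, read 29283 in control cells, 31424 at 10 μM and 23532 at 100 μM (NM_000034). It was the 1 gene other than HK1 whose signal was highest at the low dose, but its log2 fold changes of 0.04 ± 0.06 and -0.07 ± 0.06 lay within 2 spot SDs of 0.

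GAPDH oxidises glyceraldehyde 3-phosphate, and the study used its transcript as the reference in quantitative PCR. Its signal was 45249 in control cells, 44252 at 10 μM and 34634 at 100 μM (NM_002046), with 1 outlier spot left out at 10 μM. The log2 fold change was -0.09 ± 0.01 at 10 μM and -0.14 ± 0.02 at 100 μM, small beside the genes above but over 2 spot SDs from 0. For GAPDH and PGK1 this error is that of a mean over 10 spots, so it is a narrower measure than for genes on a single spot. Across the 7 scalings that do not use GAPDH itself, the high-dose value ran from -0.42 to -0.06. PGK1, which makes the first ATP of the pathway, read 13830, 12968 and 11135 (NM_000291, chrX:77268118-77268177), with log2 fold changes of -0.15 ± 0.01 and -0.06 ± 0.01.

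SLC2A1, the transporter GLUT1, read 51641 in control cells, 49467 at 10 μM and 43067 at 100 μM (NM_006516, chr1:43164461-43164520). It was nearly level after scaling, at -0.12 ± 0.06 and -0.01 ± 0.06 on the log2 scale. At 100 μM the sign of GPI, PFKL, ALDOA, PGK1 and SLC2A1 changed among the 8 scalings, so no direction is given for these 5 genes at the high dose. Before scaling, 8 of the 10 genes had a lower signal at each step of dose. After scaling only HK2, GAPDH, ENO1 and LDHA had.

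Many of these genes are among the brightest on the array. As a wider reference, the 1026 genes with a mean signal of 10000 or more had median log2 fold changes of -0.08 at 10 μM and -0.05 at 100 μM, close to the medians of the glycolysis genes. Past 1.5-fold, 23 of these bright genes were higher and 23 lower at 10 μM, and 58 were higher and 67 lower at 100 μM.

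The doses were also set against each other directly. At 10 μM over 100 μM, 7.47% of 16791 genes were past 1.5-fold higher and 14.3% past it lower, and none of the 10 glycolysis genes was past it in either direction. Their median was 0.07, beside -0.10 for all genes. ENO1 was highest at 0.36 ± 0.06, followed by HK2 at 0.26 ± 0.06 and HK1 at 0.24 ± 0.07, and the last 2 were closer together than their spot SD. SLC2A1 was lowest at -0.11 ± 0.06. ENO1 was past 1.5-fold under 3 of the 8 scalings in this comparison. The control array takes no part in it, but the same treated arrays enter the comparisons above, so it is not a separate measurement.

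**Figure D3:**
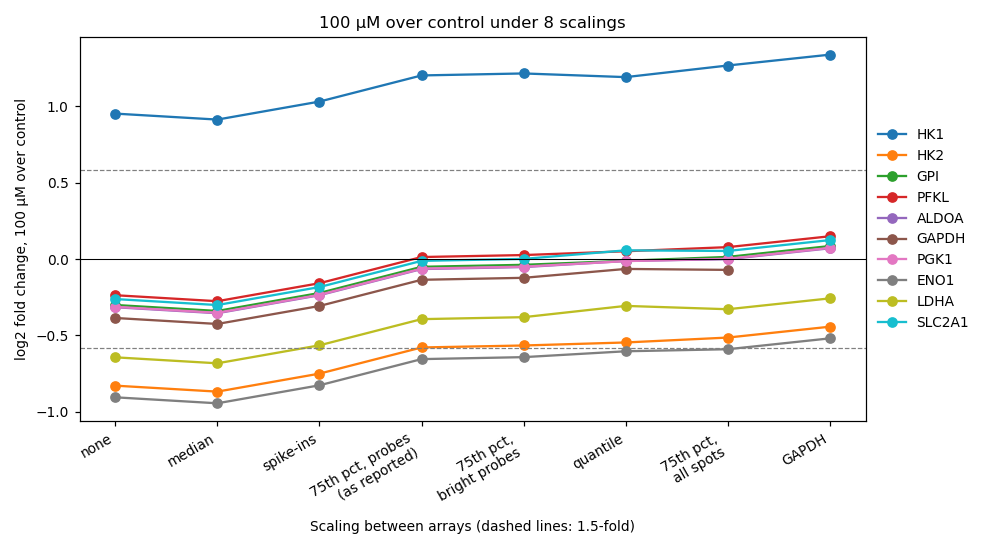
Log2 fold change of the glycolysis genes at 100 μM over control (vertical axis) under 8 ways of scaling the arrays (horizontal axis), each point from 1 pair of arrays; GAPDH has no point where it is the reference. The uniform scalings slide all genes together, HK1 stays above the upper dashed line (1.5-fold) throughout, and ENO1 and HK2 stay lowest.

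The isozymes of these enzymes did not share one pattern. ENO2, the enolase of neurons, read 452.6 in control cells, 848.7 at 10 μM and 407.8 at 100 μM. It was high on the low-dose array alone, with log2 fold changes of 0.85 ± 0.07 and 0.10 ± 0.08. ENO3, the enolase of muscle, read 702.4, 780.4 and 1001 and was high on the high-dose array, at 0.09 ± 0.07 and 0.76 ± 0.07. Against ENO1, ENO2 changed by 1.14 at 10 μM and 0.75 at 100 μM, and ENO3 by 0.38 and 1.42. Both ratios thus shifted away from ENO1 at both doses, by different amounts.

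Among the phosphofructokinases, PFKM read 266.3, 316.8 and 350.2, and PFKP read 365.4, 436.3 and 254.5. Against PFKL, the muscle form PFKM changed by 0.28 ± 0.10 at 10 μM and 0.63 ± 0.11 at 100 μM. The platelet form PFKP changed by 0.28 ± 0.09 and then by -0.29 ± 0.11, so it went opposite ways at the 2 doses. ALDOC, the aldolase of brain, changed against ALDOA by -0.05 ± 0.10 at 10 μM and by 0.64 ± 0.10 at 100 μM.

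LDHC, the lactate dehydrogenase of testis, read 57.27, 48.76 and 26.73. It was dim, and against LDHA it changed by 0.01 ± 0.21 and -0.46 ± 0.28, within 2 spot SDs of 0. LDHB, PGK2 and GAPDHS were not well above background. TPI1 and PGAM1 encode enzymes of the steps between aldolase and enolase. TPI1 was level, at 0.00 ± 0.06 and -0.08 ± 0.06. PGAM1 was 0.14 ± 0.06 at 10 μM, over 2 spot SDs from 0, and 0.04 ± 0.06 at 100 μM. Its dimmer probe gave 0.23 ± 0.06 and 0.11 ± 0.07. PGAM2, the muscle phosphoglycerate mutase, was 0.42 ± 0.14 and 0.55 ± 0.15. The pyruvate kinase gene PKM (PKM2 on the array) was 0.30 ± 0.06 and -0.19 ± 0.07, and PKLR, the pyruvate kinase of liver and red cells, was -0.13 ± 0.11 and 0.63 ± 0.11. In all, 12 of 17 isozymes and further steps could be compared: ENO2 was past 1.5-fold higher at 10 μM and none lower, and at 100 μM PFKM, ENO3 and PKLR were past it higher and LDHC lower. Of the 3 that were higher at 100 μM, PFKM and PKLR were past 1.5-fold in 3 of the 6 other uniform scalings and ENO3 in 4.

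**Figure D4:**
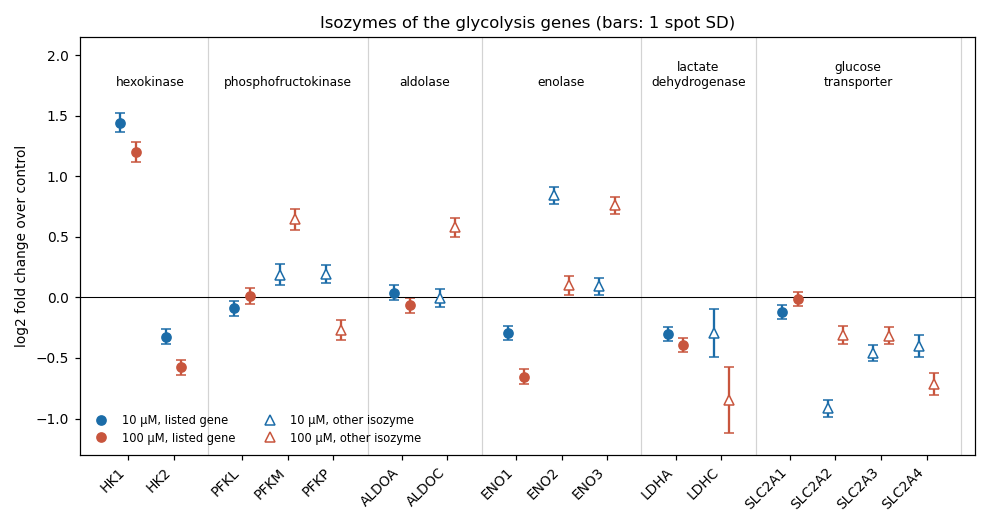
Log2 fold change over control at 10 μM (blue) and 100 μM (red) of the glycolysis genes (filled circles) and of isozymes that were above background (open triangles), grouped by enzyme, with bars of 1 spot SD. HK1 and HK2 lie on opposite sides of 0, ENO2 is high at 10 μM alone and ENO3 at 100 μM alone.

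Of 15 other listed genes of glucose and lactate transport, 14 were on the array and 11 could be compared. Past 1.5-fold, 1 was lower at 10 μM and 2 at 100 μM, and none was higher. SLC2A2, the GLUT2 transporter of liver, read 1028 in control cells, 569.1 at 10 μM and 698.6 at 100 μM, low on both treated arrays. Its log2 fold change was -0.92 ± 0.07 at 10 μM and -0.31 ± 0.07 at 100 μM, and it changed against SLC2A1 by -0.79 and -0.30. SLC2A3, the GLUT3 transporter of neurons, changed against SLC2A1 by -0.34 and -0.30. At 100 μM, SLC2A4, the insulin-sensitive GLUT4 (-0.72 ± 0.09), and SLC16A1, the lactate carrier MCT1 (-0.68 ± 0.07), were past 1.5-fold lower. SLC2A6 was past 1.5-fold lower at 10 than at 100 μM, at -0.80, though in 3 of the 6 other uniform scalings it was not. Its dimmer probe disagreed with the brighter over control: the brighter gave -0.32 and 0.48, the dimmer 0.98 and 1.37 on the log2 scale.

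The regulators of glycolytic flux ranged from -0.69 to 1.17 at 10 μM and from -1.42 to 1.44 at 100 μM on the log2 scale. C12orf5, now named TIGAR, a phosphatase of fructose 2,6-bisphosphate and known p53 target that lowers flux, read 58.54 in control cells, 137 at 10 μM and 133.8 at 100 μM. TXNIP, which restrains glucose uptake, read 1019, 1855 and 1578. Both were high on both treated arrays: TIGAR by 1.17 ± 0.15 and 1.44 ± 0.15 and TXNIP by 0.80 ± 0.07 and 0.88 ± 0.07 on the log2 scale. PDK1, a kinase that inhibits pyruvate dehydrogenase and so the making of acetyl-CoA from pyruvate, read 487, 314.7 and 152.9, stepping down with dose to -0.69 ± 0.08 and -1.42 ± 0.09.

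Of the bifunctional enzymes that set the level of fructose 2,6-bisphosphate, PFKFB4 was near control at 10 μM (0.08 ± 0.10) and 1.20 ± 0.10 at 100 μM. PFKFB3, the member with the highest ratio of kinase to phosphatase activity, was -0.33 ± 0.09 and -0.89 ± 0.11. A second, dim PFKFB3 probe disagreed: it read 18.88 in control cells, not well above background, and 28.01 and 27.82 on the treated arrays. PFKFB1, the liver member, was dim at 23, 20.82 and 43.27, and at 100 μM it was 1.16 ± 0.35 over control. PDK3, another kinase of pyruvate dehydrogenase, and GCKR differed between doses, at 0.81 ± 0.24 and -0.86 ± 0.04 for 10 over 100 μM. PDK3 was dim, at 33.6 on the high-dose array. In all, 10 of 12 regulators could be compared, with 2 past 1.5-fold higher and 1 lower at 10 μM, and 4 higher and 2 lower at 100 μM. Those 6 at 100 μM were past 1.5-fold in all 6 other uniform scalings.

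Transcription factors and known targets of hypoxia were also listed. MYC, an activator of many glycolysis genes, read 12506 in control cells, 6132 at 10 μM and 3044 at 100 μM. It stepped down at each dose, with log2 fold changes of -1.09 ± 0.02 and -1.79 ± 0.01 on a probe spotted 10 times. HIF1A was near 0 on its brighter probe, at 0.04 ± 0.03 and 0.07 ± 0.03. A dimmer HIF1A probe gave -0.14 ± 0.14 and 0.34 ± 0.14. EPAS1, which encodes HIF-2α, was high on both treated arrays, at 0.92 ± 0.06 and 0.73 ± 0.07. Among the hypoxia targets, VEGFA was -0.63 ± 0.07 and -0.63 ± 0.07, and P4HA1, a collagen prolyl hydroxylase, was -0.86 ± 0.06 and -0.70 ± 0.06. ADM, the hormone adrenomedullin, went the other way at 10 μM, at 0.65 ± 0.03, and was 0.19 ± 0.03 at 100 μM. NDRG1 was higher at both doses, at 0.58 ± 0.07 and 0.515 ± 0.07, short of 1.5-fold. MLXIPL, which encodes the glucose-responsive factor ChREBP, was -0.21 ± 0.06 and 0.62 ± 0.07. BNIP3 was -0.08 and -0.10, ANKRD37 was -0.20 and -0.12, and CA9 and EGLN3 were not well above background. Of 11 genes compared, 2 were past 1.5-fold higher and 3 lower at each dose. EPAS1 and MLXIPL at 100 μM were past it in 3 of the 6 other uniform scalings, and VEGFA in 3 at 10 μM and 4 at 100 μM. Any part of these factors in the values of the glycolysis genes was not tested.

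Gluconeogenesis runs the pathway backwards in liver. Of its 8 listed genes 5 could be compared, and PCK1, G6PC and FBP2 were not well above background. FBP1 was past 1.5-fold lower at 10 μM (-0.82 ± 0.12) and PCK2, the mitochondrial PEP carboxykinase, was past it lower at 100 μM (-0.80 ± 0.06), while G6PC3 was past it higher at 100 μM (0.63 ± 0.08), though in 3 of the 6 other uniform scalings alone. A dimmer PCK2 probe gave -1.44 ± 0.08 at 10 μM and -1.33 ± 0.08 at 100 μM, past 1.5-fold lower at both doses. The pentose phosphate pathway draws off glucose 6-phosphate for NADPH and ribose. Its RPIA, the ribose phosphate isomerase, read 5283, 3531 and 1939, stepping down to -0.64 ± 0.06 and -1.20 ± 0.06. TKT, transketolase, was -0.23 ± 0.06 and -0.60 ± 0.06. TKTL1 was well above background at 100 μM alone, a level at least 3.475-fold above the control array. Of the 7 genes of the pyruvate dehydrogenase complex and pyruvate carrier, the carrier gene MPC1 (BRP44L on the array) was past 1.5-fold higher at 100 μM, at 0.67 ± 0.02, in 3 of the 6 other uniform scalings as well, and none was past it at 10 μM.

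**Figure D5:**
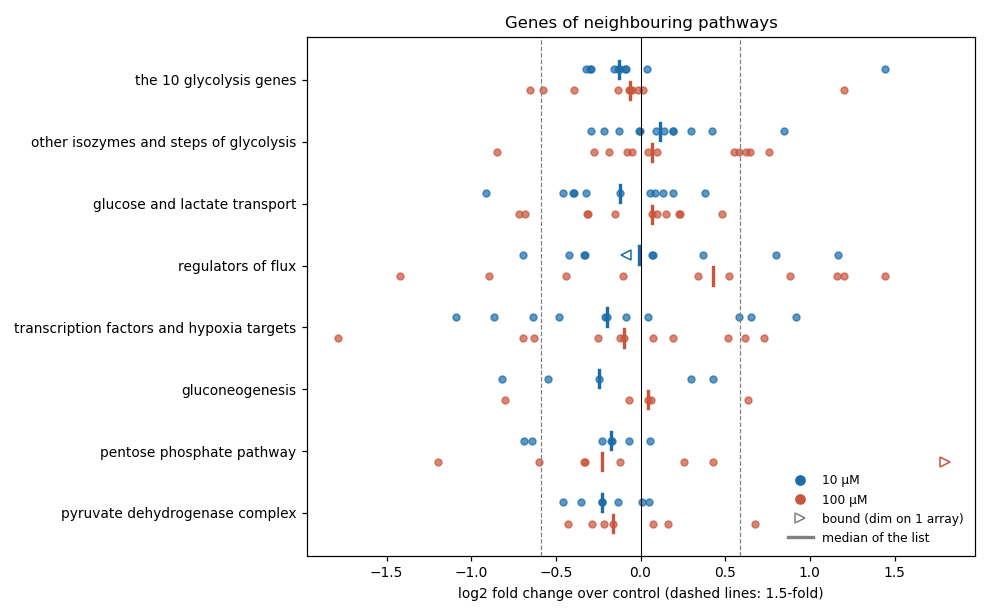
Log2 fold change over control (horizontal axis) at 10 μM (blue) and 100 μM (red) of each measured gene in the lists of glycolysis and its neighbouring pathways (rows), with the median of each list as a short bar and open triangles for genes dim on 1 array, whose value is a bound. The medians lie near 0 in most rows, and among the measured values at 100 μM MYC is lowest at -1.79 and TIGAR highest at 1.44.

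The promoters of the 3 genes that were lowest at both doses are shown for the letters CACGTG, the E-box that MYC and its partners are known to bind, which also holds the ACGTG of the hypoxia element. They run from 250 bases before to 50 after a transcription start in RefSeq (GRCh38.p14) and are read 5′ to 3′ on the strand of the gene. Capitals mark CACGTG. The HK2 window is chr2:74834920-74835219 (plus strand), 1 of 2 starts of the gene. The LDHA window is chr11:18394313-18394612 (plus strand), also 1 of 2, and the ENO1 window is chr1:8878637-8878936 (minus strand), its only start in the table.
HK2 promoter: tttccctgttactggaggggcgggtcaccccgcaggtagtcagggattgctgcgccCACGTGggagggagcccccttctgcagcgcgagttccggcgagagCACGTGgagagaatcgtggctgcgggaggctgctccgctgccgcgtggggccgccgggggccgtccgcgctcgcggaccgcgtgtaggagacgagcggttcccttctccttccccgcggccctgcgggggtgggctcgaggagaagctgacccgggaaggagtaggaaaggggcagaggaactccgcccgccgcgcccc
LDHA promoter: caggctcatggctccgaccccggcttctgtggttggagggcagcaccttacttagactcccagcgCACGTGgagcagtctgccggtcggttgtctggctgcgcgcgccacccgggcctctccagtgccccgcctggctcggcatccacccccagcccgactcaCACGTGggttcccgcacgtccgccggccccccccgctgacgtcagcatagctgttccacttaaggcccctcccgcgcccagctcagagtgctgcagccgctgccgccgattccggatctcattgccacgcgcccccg
ENO1 promoter: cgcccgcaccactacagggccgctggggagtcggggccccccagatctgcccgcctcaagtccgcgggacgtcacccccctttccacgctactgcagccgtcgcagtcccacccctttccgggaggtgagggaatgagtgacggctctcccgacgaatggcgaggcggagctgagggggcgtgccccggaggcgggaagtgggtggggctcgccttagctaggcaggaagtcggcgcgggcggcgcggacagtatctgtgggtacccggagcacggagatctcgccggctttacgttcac
The HK2 and LDHA windows each held CACGTG at 2 places, and the ENO1 window did not hold these letters. At the other start of HK2 and the other start of LDHA, not shown, the window did not hold them either. For these 2 genes the window shown is thus the one with the letters. Over the 20 promoters of the 10 genes, searched on both strands, HK2, ALDOA, GAPDH and LDHA had a promoter with CACGTG, 4 of 10 genes. Of all genes in RefSeq's promoter set, 8.78% had one, and 7.26% of all 35116 promoters held it, against 4 of the 20 here. The 10 genes have more promoters each than the 27305 genes of the set, so the count over promoters is the closer comparison. HK1 had 7 promoters in the table, none of them with CACGTG. The shorter ACGTG was found for 6 of the 10 genes, against 24.9% of all genes. GCGTG, the other form of the hypoxia element, was found for 7 of 10, against 40.6%. Over promoters, ACGTG was in 9 of the 20, against 21.4% of all promoters, and GCGTG in 10 of the 20, against 36.5%. These are counts of letters, they are no measure of binding, and no count was tested.

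Some other genes lay close to HK1 in both comparisons over control. Among 12046 genes with a RefSeq mRNA and a signal well above background at each dose, the nearest by distance in the pair of log2 fold changes were ARVCF (1.47 and 1.17), DNAJB5 (1.499 and 1.18) and P2RY2 (1.54 and 1.22). In all, 27 genes lay within a distance of 0.25.

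The identity of the cells was read from markers. All 9 hepatocyte markers were well above background on every array, among them ALB, AFP and APOA1, with median log2 fold changes of -0.06 at 10 μM and 0.47 at 100 μM. TTR was past 1.5-fold higher at both doses and SERPINA1 at 100 μM, while ALB and HNF4A were past it lower at 10 μM. HNF4A was dim, at 50.74, 30.38 and 53.73, and its value at 10 μM was -0.80 ± 0.29. Of 6 markers of other cell types, 4 were above background. The fibroblast genes COL1A1 and COL1A2 were not. The blood marker CD14 read 520.6, 1184 and 1847, so it was higher on both treated arrays, as HK1 was, and PTPRC read 257.3, 131.4 and 288.2 on its brightest probe, the others being near background. Endothelial PECAM1 read 472.8, 297.6 and 286.1 and CDH5 47.92, 52.91 and 41.56. The part of these genes in the values above was not tested. Spiked control RNA gave mean log2 ratios of 0.01 at 10 μM and -0.08 at 100 μM over 7 probes.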

How the data were processed

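The authors deposited, for each of the 3 arrays, the scanner output of Agilent Feature Extraction (version 10.7.3.1, from the submitters' processing notes), whose processed signal is a background-corrected intensity for each of 44495 spots. A deposited table of the whole series held the same intensities for all 44495 spots of each array. No saturated spot was found, and 19836 to 20151 of 34127 probes were well above background; the number of arrays, 1 for each condition, limits the precision.

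From these intensities, log2 values were taken, outlier spots left out, spots of a probe averaged, and the 75th percentile over probes, each counted once as in an earlier analysis of these data, subtracted. A gene was represented by its brightest probe. A dim signal was set to the floor of its array, the lowest of the signals called well above background (19.51 to 22.65), and the fold change was then a bound. Scripts used Python 3.11.15, numpy 2.4.6 and pandas 2.3.3, with limma 3.58.1 in R 4.3.3 for the normexp alternative, and were tested on simulated data. The alternatives were scaling in other ways (8 in all with the one reported), normexp, outlier spots kept, the mean of all probes, the series table, no filter on dim probes, and thresholds of 2-fold and 3-fold.

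The glycolysis genes and the wider lists were chosen with earlier results of these data known. All 10 genes with every probe were named, with their isozymes, the listed genes past 1.5-fold (a few are not reported here), and the 3 genes nearest to HK1, which had the largest log2 fold change over control. BNIP3, CA9, NDRG1, ANKRD37, EGLN3, HIF1A, PCK1, G6PC, FBP2, TPI1, PGAM1, PGAM2, PKM and the markers were chosen after their values were seen. Probe accessions of 9 of the 10 genes matched the RefSeq table of GRCh38.p14, and ALDOA kept the name on the array. Probe positions are those of the array file, in hg18; a genome of that build was not used here. A study table calls the control DMSO where the labels say untreated. All 3 arrays lay on 1 slide.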

Additional observations from a re-analysis of the deposited data

How the results depend on the processing

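The median log2 fold change of the 10 genes at 10 μM over control, -0.13 as reported, was -0.067 without scaling and -0.0401 with GAPDH as the reference. At 100 μM over control, -0.06 as reported, it was -0.31 without scaling, -0.35 with median scaling, 0.00052 with the percentile over all spots, -0.24 with spike-in scaling, 0.073 with GAPDH and -0.15 with normexp. At 10 over 100 μM, 0.07 as reported, it was 0.38 without scaling, 0.34 with the median, -0.0058 with all spots and 0.29 with spike-ins. The number past 1.5-fold at 10 μM, 1 as reported, was 0 at a 3-fold threshold. At 100 μM, 2 as reported, it was 4 without scaling and with the median, 3 with spike-ins, 1 with GAPDH, 1 at 2-fold and 0 at 3-fold. At 10 over 100 μM, 0 as reported, it was 1 without scaling, with the median and with spike-ins. Of 357 values of single genes under the alternatives, 223 moved by less than the spot SD, 134 moved by more, and 0 were past 1.5-fold and turned in sign. The uniform scalings move every gene alike by construction.

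No paired analysis was possible because no condition had a second array, and for that reason no replicate was left out. A slide block was not run, the 3 arrays being on 1 slide. The spot SD holds no spread between cultures. PFKFB1, LDHC, TKTL1, HNF4A and PDK3 were dim, so their values are among the least certain.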
